A study of Homo sapiens with 4 samples.

Results

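Keratins are the intermediate filament proteins of epithelial cells. Each filament is built from paired type I and type II chains, so a cell that makes one kind without a partner of the other kind makes no filament. In simple epithelia such as that of the lung, KRT8 (type II) with KRT18 (type I) is the basic pair, KRT7 (type II) and KRT19 (type I) join it, and keratins of stratified epithelium or hair are normally silent. The 9 keratin genes described here were chosen by symbol from the 61228 genes in the count files, with their counts with and without ACBI1 already known. They are a run of 6 genes at the keratin cluster of chromosome 12q (KRT80, KRT7, KRT86, KRT81, KRT8 and KRT18) and a group of 3 at the cluster of chromosome 17q (KRT15, KRT17 and KRT19). Since the contrast of ACBI1 with DMSO entered the choice, the differences of these 9 genes are given as a description, without tests.

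The libraries came from H1792, an established human lung cancer line labelled as wild type, kept for 96 h with DMSO, the solvent control, or with ACBI1, whose dose the labels write as 1 mM. ACBI1 is a PROTAC that brings SMARCA2, SMARCA4 and PBRM1, subunits of the SWI/SNF chromatin remodelling complexes, to the VHL ubiquitin ligase for degradation. Each group held 2 libraries of total RNA, which makes 4 libraries in all, with 64281850 to 86010100 gene counts per library. A single line was used, proteins were not analysed here, and whether the replicates came from separate dishes is not given, so p-values measure only the spread between these libraries, which may be technical. The dose unit could not be checked against the data. The transcripts of the targets, which do not check the action of a protein degrader, were not called: SMARCA4 was at 284 and 216 CPM with DMSO and 414 and 398 CPM with ACBI1 (edgeR adjusted p 0.0583), SMARCA2 at 22.8 and 24.4 against 17.5 and 18.4 CPM, and PBRM1 at 55.0 and 45.3 against 55.6 and 51.6 CPM. CPM are counts per 1000000 counts on library sizes scaled by TMM, edgeR's correction for library composition.

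The lung and epithelial labels were set against marker genes. Of 6 epithelial markers, 5 had a mean of at least 1 CPM with DMSO, namely KRT7, KRT8, KRT18 and KRT19 of the genes described here and EPCAM, an epithelial adhesion gene, whereas CDH1, the adherens junction gene E-cadherin, was at 0.0491 to 0.222 CPM in all 4 libraries. EPCAM was at 5.38 and 2.78 CPM with DMSO and at 15.6 and 4.84 CPM with ACBI1, and was not called. None of 5 alveolar markers reached a mean of 1 CPM in either group, and NKX2-1, the lung lineage factor, had 0 counts in each library. The basal and squamous keratins KRT5, KRT6A and KRT14 had 0 counts in each library too. VIM, the mesenchymal filament gene, was at 2677 to 3034 CPM. Immune markers summed to 0.0559 to 0.137 CPM. Endothelial markers summed to 12.6 and 48.5 CPM with DMSO and to 0.0112 and 0.0458 CPM with ACBI1, nearly all of it from PECAM1, while CDH5 stayed at or below 0.0556 CPM. In the ACBI1 libraries the summed mesenchymal markers were 3040 and 3110 CPM, against 4020 and 4600 CPM with DMSO. The lower sum came from the collagen genes COL1A1 (324 and 693 CPM with DMSO, 62.3 and 210 CPM with ACBI1) and COL1A2 (646 and 1189 CPM against 16.5 and 48.4 CPM). The part of these differences in the keratin values was not tested.

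All 9 keratins had lower values with ACBI1 than with DMSO, and in none did the 2 groups of libraries overlap. Over the 19159 genes tested, 32.2% had both ACBI1 libraries below both DMSO libraries and 31.1% had both above. Of the 9, 8 had enough counts to be tested across all genes. A gene was called where edgeR's quasi-likelihood test gave a Benjamini-Hochberg adjusted p under 0.05. Among all tested genes, 10.6% were called lower and 6.75% higher. Calls of the members are not given, and nothing is read from their lack of overlap, because the contrast chose them. The log2 changes of the 8 ran from -4.24 for KRT80 to -1.14 for KRT18, with a median of -2.37. The median over all tested genes was 0.01. In bulk RNA, fewer cells that express a gene and less RNA per cell cannot be told apart.

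**Figure D1:**
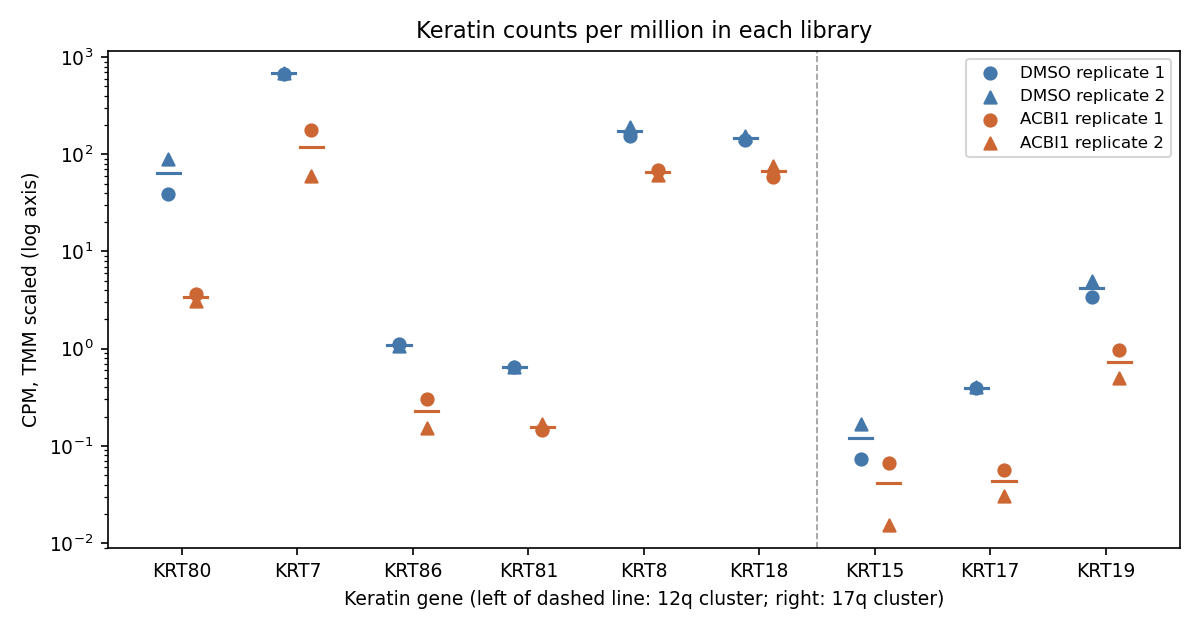
CPM (log axis) of the 9 keratin genes, with 1 point for each of the 4 libraries (circle for replicate 1, triangle for replicate 2) and a line at each group's mean. KRT7 is the highest of the 9 in both groups by mean, and the ACBI1 points lie below the DMSO points for each gene, for KRT15 by a narrow margin at very low counts.

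KRT7, the simple-epithelial type II keratin that also serves as a diagnostic marker of lung adenocarcinoma, lies on chromosome 12 from 52232520 to 52252186 (plus strand, GENCODE release 29, GRCh38). It was at 678 and 680 CPM in DMSO replicates 1 and 2 and at 179 and 60.3 CPM in ACBI1 replicates 1 and 2. The DMSO libraries were nearly equal, and the ACBI1 libraries, both far below, differed from each other by 2.97-fold. The log2 change was -2.50 (SE 0.49, n = 2 a group), and it was -3.48 when ACBI1 replicate 1 was left out and -1.93 when ACBI1 replicate 2 was. An antisense gene that overlaps it, KRT7-AS, named after its values were seen, fell from 2.70 and 3.60 CPM with DMSO to 0.860 and 0.259 CPM with ACBI1 (log2 change -2.47, edgeR adjusted p 0.0379), but was not called without ACBI1 replicate 2 (log2 change -1.88, edgeR adjusted p 0.0613). Its counts were 0.399% to 0.529% of those of KRT7 in each of the 4 libraries. Exons of KRT7-AS and KRT7 share 282 bases, which is 16.7% of the exonic length of KRT7-AS, and without a stated strand setting reads from that stretch cannot be told apart.

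KRT80 is an embryonic and epithelial type II keratin that is found near desmosomes, and it opens the 12q cluster (chromosome 12, 52168996 to 52192000, minus strand). It had the largest drop of the 9, from 39.0 and 88.8 CPM under DMSO to 3.65 and 3.08 CPM under ACBI1. The DMSO replicates differed by 2.28-fold, and both ACBI1 libraries lay far below the lower of them. The log2 change was -4.24 (SE 0.43), or -3.53 without DMSO replicate 2. No exon of another gene overlaps KRT80 in GENCODE release 29, and 0.364% of its 50-base words occur in transcripts of other genes.

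KRT8 and KRT18, the partners of the basic simple-epithelial filament, end the cluster and lie head to head (KRT8 from 52897187 to 52949954 on the minus strand, KRT18 from 52948871 to 52952901 on the plus strand). KRT8 was at 155 and 192 CPM with DMSO and at 69.1 and 60.9 CPM with ACBI1. KRT18 was at 140 and 155 CPM with DMSO and at 58.7 and 75.1 CPM with ACBI1. In both genes the 2 libraries of a group lay close together, and ACBI1 left 37.5% of the mean level of KRT8 and 45.4% of that of KRT18, the smallest drops among the 8 tested. The log2 changes were -1.42 (SE 0.18) for KRT8 and -1.14 (SE 0.19) for KRT18. Their exons share 525 bases on opposite strands, which is 7.63% of the exonic length of KRT8 and 16.3% of that of KRT18.

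Both genes have many processed copies in the genome, so reads can be split between gene and copy. The 51 KRT8 pseudogenes in the files held 1441 and 1041 counts in the DMSO libraries and 1707 and 871 counts in the ACBI1 libraries, or 17.7 and 14.5 CPM against 19.1 and 13.3 CPM. These sums overlap between the groups, while those of KRT8 itself do not. The pseudogene reads, which are counted apart from KRT8, equalled 11.4% and 7.54% of the KRT8 count with DMSO and 27.6% and 21.8% with ACBI1. Of 6 KRT8 pseudogenes tested, 1 was called, KRT8P9, with 0.614 and 0.417 CPM against 0.0782 and 0.0153 CPM (log2 change -3.33, edgeR adjusted p 0.0276), and it was not called without ACBI1 replicate 2 (adjusted p 0.0824). KRT8P9 passed the count filter through the DMSO libraries alone, so it could only come out lower. Over all tested genes, 17.4% were called either way. The 67 KRT18 pseudogenes held 37 to 65 counts per library, and the 2 tested were not called.

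KRT81 and KRT86 are type II hair keratins that come after KRT7 and before the silent middle of the cluster. KRT81 (52285913 to 52291534, minus strand) lies inside the annotated span of KRT86 (52249300 to 52309163, plus strand). That span starts before the end of KRT7 at 52252186. No exon of another gene overlaps the exons of KRT81. KRT81 and KRT86 are near copies, and their coding sequences show how far their counts can be separated. Over 1451 aligned coding bases, 94.5% are identical, and the longest identical run covers coding bases 61 to 665, counted from 1 at the start codon. The opening 60 bases of that run are the same in both genes. Among 60-base windows without alignment gaps, the one with the most differences covers coding bases 1249 to 1308, with 14 differing bases in capitals. Both stretches read as follows in GENCODE release 29, 5′ to 3′.
Both genes, bases 61 to 120: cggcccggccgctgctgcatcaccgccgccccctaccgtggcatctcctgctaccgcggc
KRT81, bases 1249 to 1308: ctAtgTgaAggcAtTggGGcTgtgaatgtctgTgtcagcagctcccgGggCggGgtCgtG
KRT86, bases 1249 to 1308: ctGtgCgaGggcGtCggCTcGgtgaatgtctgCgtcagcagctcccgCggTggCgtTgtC

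A read from within the shared run matches both genes, while a read from the second window can be assigned to 1 of them. Of the 50-base words in its transcripts, KRT81 shares 37.6% with KRT86, and KRT86 shares 30.8% with KRT81, so the counts of both are uncertain. KRT81 gave 53 and 47 counts under DMSO and 13 and 11 under ACBI1, or 0.651 and 0.653 against 0.145 and 0.168 CPM. KRT86 had 92 and 76 counts against 27 and 10, or 1.13 and 1.06 against 0.302 and 0.153 CPM. Their log2 changes were -2.05 (SE 0.43) for KRT81 and -2.24 (SE 0.47) for KRT86. Both were low in every library, and their drops differed by less than either SE.

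At 17q, KRT19 is the simple-epithelial type I keratin that lacks most of the tail domain (chromosome 17, 41523617 to 41528308, minus strand). It was at 3.44 and 5.00 CPM with DMSO and at 0.961 and 0.503 CPM with ACBI1, a log2 change of -2.51 (SE 0.44). KRT17, a type I keratin of basal and wounded epithelium (41619441 to 41624842, minus strand), rested on 32 and 29 counts with DMSO against 5 and 2 with ACBI1. This is 0.393 and 0.403 CPM against 0.0559 and 0.0305 CPM, with a log2 change of -3.11 (SE 0.56). KRT19 was present in the control libraries, at a level far below KRT18, and KRT17 was close to the limit of counting.

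KRT15, a type I keratin of basal cells (41513743 to 41522529, minus strand), did not pass the filter on low counts. Its counts were 6 and 12 under DMSO and 6 and 1 under ACBI1, or 0.0737 and 0.167 against 0.0670 and 0.0153 CPM. DMSO replicate 1 and ACBI1 replicate 1 held the same number of counts, and the groups stood apart after scaling only by a margin far inside counting error. The ratio of summed counts per library size, DMSO to ACBI1, was 2.60 and rests on these few counts. The log2 ratio of mean CPM was -1.55, and it came to -0.84 when either DMSO replicate 2 or ACBI1 replicate 2 was left out and to -2.98 when ACBI1 replicate 1 was.

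The 2 clusters did not separate by size of change. The 6 genes of the 12q run had log2 changes from -4.24 to -1.14 with a median of -2.15, and the 2 tested genes of the 17q group had -3.11 and -2.51 with a median of -2.81. The 17q values lie inside the range of the 12q run. By chain type, the 5 type II genes had a median of -2.24 and the 3 tested type I genes one of -2.51. No test was made of these differences. KRT17 passed the count filter through the DMSO libraries alone, so its change could only be negative. It enters the 17q median, the type I median and the median of the 8 tested genes, while KRT15 is left out of them. Within 12q, KRT80 at the start of the cluster had the largest drop and KRT8 and KRT18 at its end, 588 kb beyond the end of KRT86, had the smallest, also with any 1 library left out. KRT7 came second with all 4 libraries, but without ACBI1 replicate 2 its change was -1.93 and that of KRT81 -2.16.

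**Figure D2:**
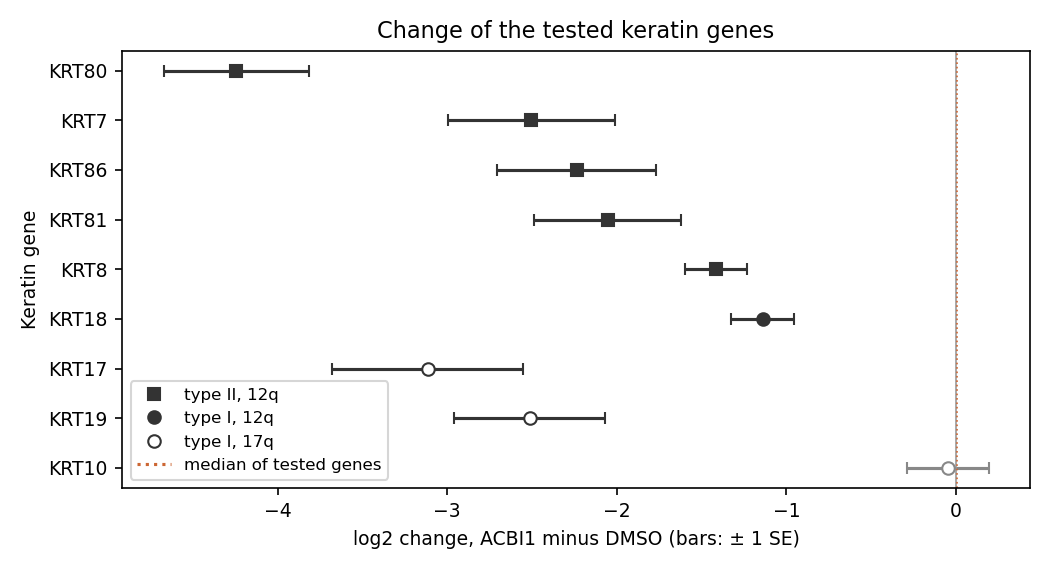
Log2 change with ACBI1 (horizontal axis, bars ± 1 SE from the fit over all genes) of the 8 keratins that could be tested and of KRT10, with squares for type II and circles for type I genes, filled at 12q and open at 17q. The values run from -4.24 (KRT80) to -1.14 (KRT18), the 17q points lie within the 12q range, and KRT10 sits at -0.05.

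The other keratin genes show how few of either cluster were read in these cells. Of 46 further protein-coding keratins, 36 had 0 counts in every library and 42 had at most 3 counts in any library. The 21 keratins between KRT81 and KRT8 include 16 with 0 counts throughout. The 4 with more than 3 counts, named after their values were seen, are KRT10, KRT79, KRT83 and KRT222. KRT10, a type I keratin of differentiating epidermis in the 17q cluster, was the only one of the 46 that could be tested, and it had 11.5 and 14.4 CPM with DMSO and 14.2 and 10.9 CPM with ACBI1. Its groups overlapped, and its log2 change of -0.05 (SE 0.24, edgeR adjusted p 0.909) took either sign over the other fits on 4 libraries, from -0.06 to 0.04. KRT79, next but one to KRT8, had 13 and 9 counts with DMSO and 0 in both ACBI1 libraries. With the DMSO counts taken as exact, this is 7.42-fold above a floor of 3 counts over the ACBI1 group. KRT83, a hair keratin beside KRT81 that shares 6.11% of the 50-base words of KRT81, had 10 and 5 counts against 0 and 0. This is 5.06-fold above that floor on the same terms. KRT222 had 1 and 3 counts against 4 and 0.

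**Figure D3:**
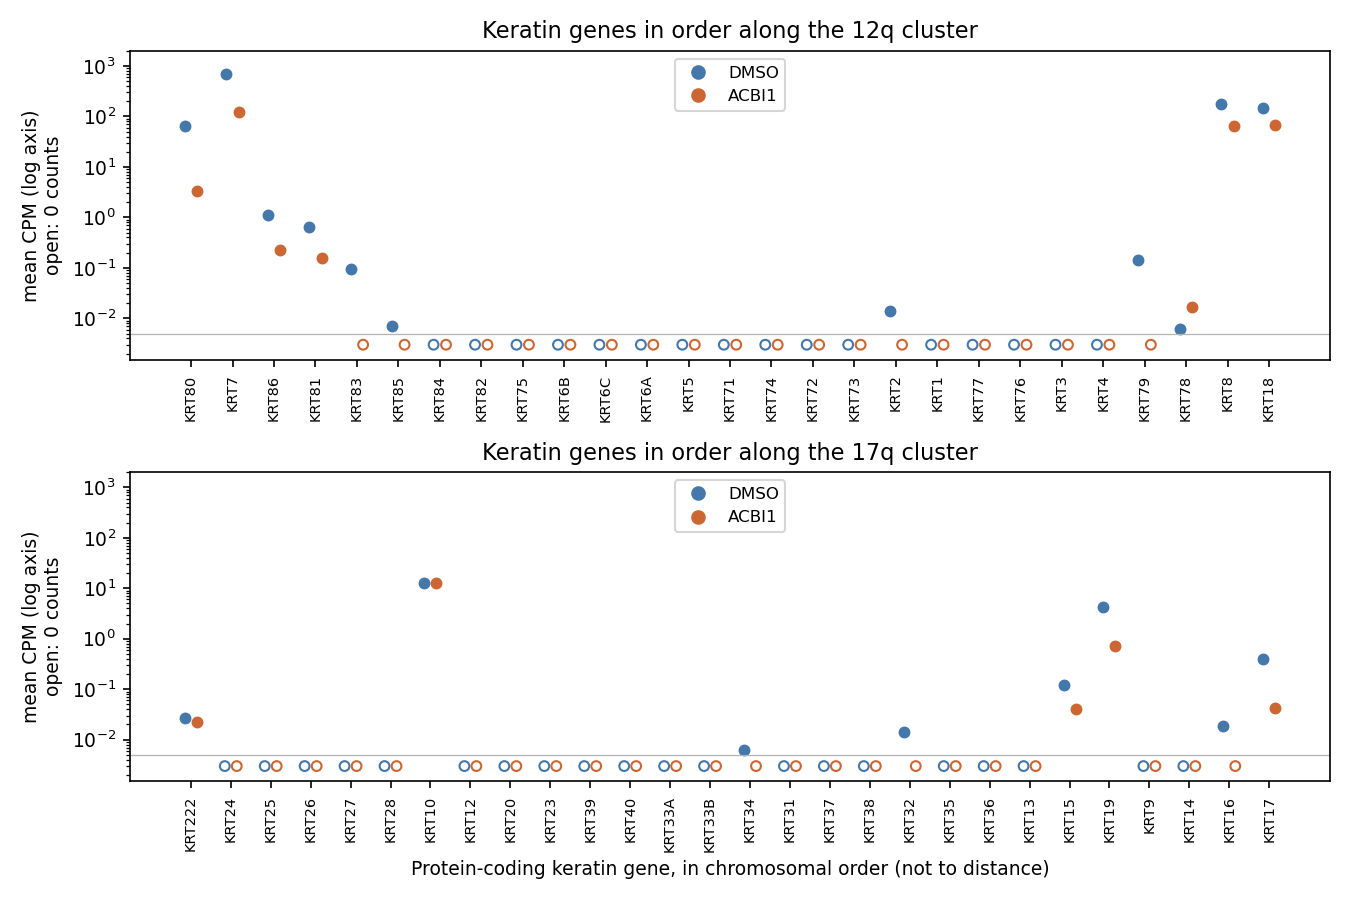
Mean CPM (log axis) of each protein-coding keratin gene with DMSO and with ACBI1, in order along the 12q cluster (top) and the 17q cluster (bottom), with open points below the grey line for a group with 0 counts. Expression sits at both ends of the 12q cluster and at KRT10 and the KRT15 to KRT17 end of the 17q cluster, and KRT10 has means of 13.0 CPM with DMSO and 12.5 CPM with ACBI1.

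The levels of the 9 genes were compared per length, as CPM per kb of the principal transcript. With DMSO the order was KRT7 (387 ± 1.11, SD, n = 2), KRT18 (94.4 ± 6.77), KRT8 (81.6 ± 12.1), KRT80 (16.6 ± 9.13), KRT19 (3.04 ± 0.796), KRT86 (0.493 ± 0.0234), KRT81 (0.338 ± 0.000894), KRT17 (0.241 ± 0.00434) and KRT15 (0.0230 ± 0.0126). Only KRT18 and KRT8 overlapped among neighbours in this order. With ACBI1 the order of the means was the same. There KRT7 (68.2 ± 47.8) overlapped KRT18 (42.8 ± 7.42), and KRT86 overlapped KRT81, whereas KRT18 and KRT8 (30.6 ± 2.72) no longer did.

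The makeup of the keratin transcripts differed between the groups. All protein-coding keratins together held 0.0986% and 0.112% of gene counts with DMSO and 0.0340% and 0.0215% with ACBI1, and the 9 genes made up 94.9% to 98.8% of these counts. Per kb, KRT7 was 68.0% and 63.4% of keratin transcripts in the DMSO libraries and 56.5% and 29.2% in the ACBI1 libraries. KRT18 was 15.8% and 16.2% with DMSO and 20.8% and 40.9% with ACBI1. The sum of type II over the sum of type I transcripts was 4.81 and 4.57 with DMSO and 3.02 and 1.20 with ACBI1. With these lengths type II transcripts were in excess in every library, by less with ACBI1, and the ACBI1 replicates lay far apart. With union exonic length, an alternative chosen after seeing the data, the ratio was 3.92 and 3.77 with DMSO and 2.17 and 0.854 with ACBI1, so type I was in excess in ACBI1 replicate 2. Without KRT7 the ratio was 0.861 and 1.04 with DMSO and 0.749 and 0.553 with ACBI1. The ratio of KRT8 to KRT18 per kb was 0.815 and 0.910 with DMSO and 0.866 and 0.597 with ACBI1, and its groups overlapped. These ratios carry no test, since 0.333 is the smallest p that an exact two-sided permutation test gives for 2 libraries against 2.

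**Figure D4:**
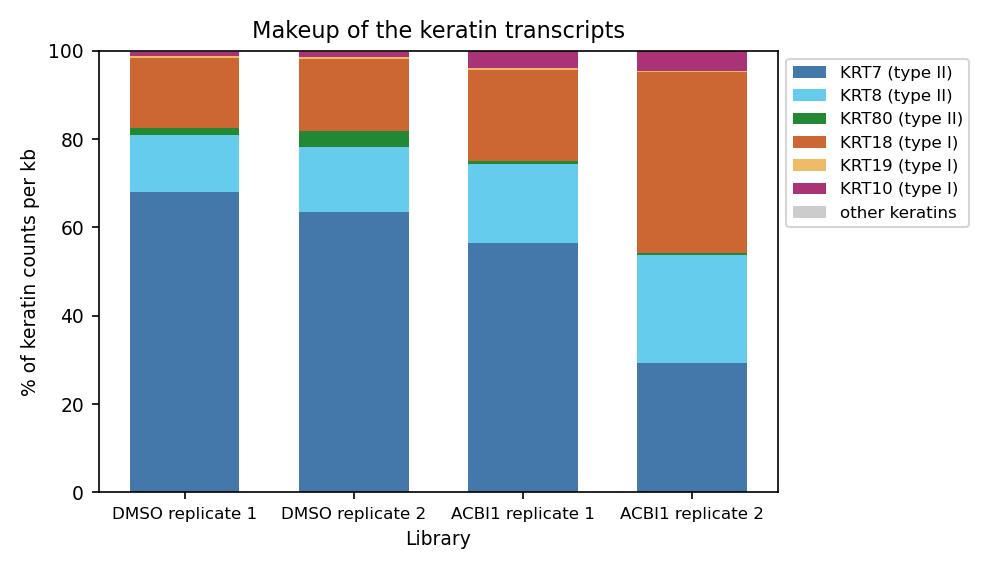
Share of each keratin gene in the keratin counts per kb (vertical axis, percent, from 0 to 100) in each of the 4 libraries, with type II genes at the bottom of each bar. KRT7 is the largest share in both DMSO libraries and in ACBI1 replicate 1, and KRT18 is the largest in ACBI1 replicate 2.

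Genes that flank the clusters were read from the RefSeq gene order (GRCh38.p14), 5 protein-coding genes on each side. At 12q, 8 of 10 could be tested, and TNS2 and IGFBP6 fell and ACVR1B rose, with a list median of 0.02. Over all tested genes, 10.6% were called lower and 6.75% higher. TNS2, a focal adhesion gene 94.1 kb beyond KRT18, was at 13.1 and 30.6 CPM with DMSO and at 5.47 and 5.08 CPM with ACBI1 (log2 change -2.05, SE 0.41, edgeR adjusted p 0.0243). IGFBP6, a binding protein for insulin-like growth factors, had a log2 change of -1.87 (edgeR adjusted p 0.0109). ACVR1B, an activin receptor gene, rose by a log2 of 0.77 (edgeR adjusted p 0.0244). The translation factor gene EIF4B, the next gene after KRT18, was at 551 and 689 CPM against 569 and 734 CPM and was not called (log2 change 0.07, adjusted p 0.848), and neither were ATG101 (0.38, 0.192), NR4A1 (-0.94, 0.0899), TAMALIN (-0.03, 0.975) and SPRYD3 (0.06, 0.913). With ACBI1 replicate 1 or ACBI1 replicate 2 left out, TNS2 (adjusted p 0.0637 and 0.0578) and ACVR1B (0.105 and 0.115) were not called, nor was ACVR1B without DMSO replicate 2 (0.0623). The change of TNS2 was -1.32 without DMSO replicate 2.

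At 17q, 6 of 10 flanking genes could be tested, with a median of -0.53. IGFBP4 fell, with a log2 change of -1.73 (edgeR adjusted p 0.0181). JUP, which encodes plakoglobin of desmosomes and lies 130 kb beyond the cluster, fell from 112 and 331 CPM to 2.87 and 12.8 CPM (log2 change -4.83, SE 0.87, edgeR adjusted p 0.0179). Leaving out DMSO replicate 2 gave -3.85 and leaving out ACBI1 replicate 2 gave -6.28. With all 4 libraries, 2 of the 6 were called lower and none higher, beside 10.6% and 6.75% among all tested genes. SMARCE1, a SWI/SNF subunit gene that borders the cluster, was at 0.945 to 1.26 CPM and was not called (log2 change -0.13, adjusted p 0.831). EIF1 (-0.02, 0.969), TOP2A (0.57, 0.101) and P3H4 (-0.93, 0.0952) were not called either.

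Keratin filaments end at desmosomes and hemidesmosomes, and 15 of 21 genes of these junctions could be tested. Of the 15, 3 fell, 1 rose and 11 were not called, with a median log2 change of -0.23, beside 10.6% lower and 6.75% higher among all tested genes. Beside JUP, the fallers were ITGB4, the hemidesmosome integrin (13.9 and 11.0 against 3.71 and 1.91 CPM, log2 change -2.15, edgeR adjusted p 0.0171), and PKP3, a plakophilin (log2 change -1.56, edgeR adjusted p 0.0261). Its relative PKP2 rose from 4.11 and 4.25 to 9.83 and 8.39 CPM (log2 change 1.12, edgeR adjusted p 0.0317). DSP, the desmosomal plakin that binds keratin, had 1 to 6 counts per library and was not tested, and PLEC, the hemidesmosomal plakin, was at 670 to 881 CPM with no call (adjusted p 0.283). PKP3 was not called without ACBI1 replicate 2 (adjusted p 0.0648), and PKP2 was not called with any 1 library left out (adjusted p 0.0503 to 0.150).

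Of 9 tested genes for linkers and kinases that bind keratins, 1 fell and 1 rose, beside 17.4% called either way among all tested genes, and the median was 0.05. PPL, which encodes periplakin, was at 1.72 and 4.80 CPM with DMSO and at 0.235 and 0.580 CPM with ACBI1 (log2 change -3.02, edgeR adjusted p 0.0330), and was not called without ACBI1 replicate 1 (adjusted p 0.0928). Its change was -2.10 without DMSO replicate 2 and -3.79 without ACBI1 replicate 2. PNN, which encodes the nuclear and desmosome-associated pinin, rose by a log2 of 0.85 (edgeR adjusted p 0.0335). It was not called without DMSO replicate 2 (adjusted p 0.0932) or without ACBI1 replicate 1 (0.130) or 2 (0.0940).

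VIM, the other main filament gene of these libraries, was at 3034 and 2677 CPM with DMSO and at 2957 and 2842 CPM with ACBI1, a log2 change of 0.02 (SE 0.19, edgeR adjusted p 0.950). Of 11 tested genes of this list, the 3 called were nuclear lamins, with a list median of 0.02. Over all tested genes, 17.4% were called either way. LMNA fell by 0.84 on the log2 scale (edgeR adjusted p 0.0334), and LMNB2 (1.04, 0.0198) and LMNB1 (0.56, 0.0462) rose. None of the 3 was called without ACBI1 replicate 1 (adjusted p 0.198 for LMNA, 0.193 for LMNB1 and 0.0578 for LMNB2) or ACBI1 replicate 2 (0.0614, 0.200 and 0.0726), and LMNB1 was not called without DMSO replicate 1 (0.0889) or DMSO replicate 2 (0.164) either.

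Cornified envelope genes were mostly silent, with 8 of 23 tested, 3 of them lower and a median of -2.47. Among all tested genes, 10.6% were called lower. The 3 called were SPRR2D, SERPINB3 and SERPINB4, each under a mean of 1 CPM with DMSO and at 0 counts in both ACBI1 libraries. They passed the count filter through the DMSO libraries alone, as did CSTA (25 and 11 counts against 4 and 1). Genes kept in this way could only come out lower, and they weigh on the list median. SPRR2D had 60 and 50 counts with DMSO, which, taken as exact, is 37.1-fold above the floor of 3 counts over the ACBI1 group (edgeR adjusted p 0.00688). SERPINB3 and SERPINB4 are near-identical serpin genes whose reads can be split. In DMSO replicates 1 and 2, SERPINB3 had 16 and 118 counts and SERPINB4 had 16 and 43, so most came from replicate 2. With the 3 called genes at this floor (log2 values -5.21, -5.50 and -4.31) the median was -2.47 too. It could not move, since these values stay below CSTA (-2.81), the next gene of the list. With ACBI1 replicate 1 left out 1 gene of the list was called, and with DMSO replicate 1 left out 5 were.

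Of 23 transcription factors known to regulate keratin or epithelial genes, 14 could be tested, 7 fell and none rose, with a median of -0.68 (over all tested genes, 10.6% fell, 6.75% rose and the median was 0.01). EHF, an epithelial ETS factor, went from 6.51 and 6.26 CPM to 0.0782 and 0 CPM (log2 change -7.14, edgeR adjusted p 0.00521), resting on 7 ACBI1 counts, all in replicate 1. Leaving out that library gave -11.86, which rests on 0 counts. EHF passed the count filter through the DMSO libraries alone, so it could only come out lower, and it counts among the 7 that fell. ELF3, its relative, had a log2 change of -6.37 (edgeR adjusted p 0.00193), and SOX9 went from 150 and 211 CPM with DMSO to a mean of 18.1 ± 8.59 CPM (SD, n = 2) with ACBI1 (log2 change -3.32, edgeR adjusted p 0.00562). TP63, the factor of basal epithelium, was among the other 4, at 1.71 and 1.28 CPM against 0.201 and 0.183 CPM. GRHL2 was too low to test, and TFAP2A, a factor that binds keratin promoters, was not called (log2 change 0.27, adjusted p 0.657).

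**Figure D5:**
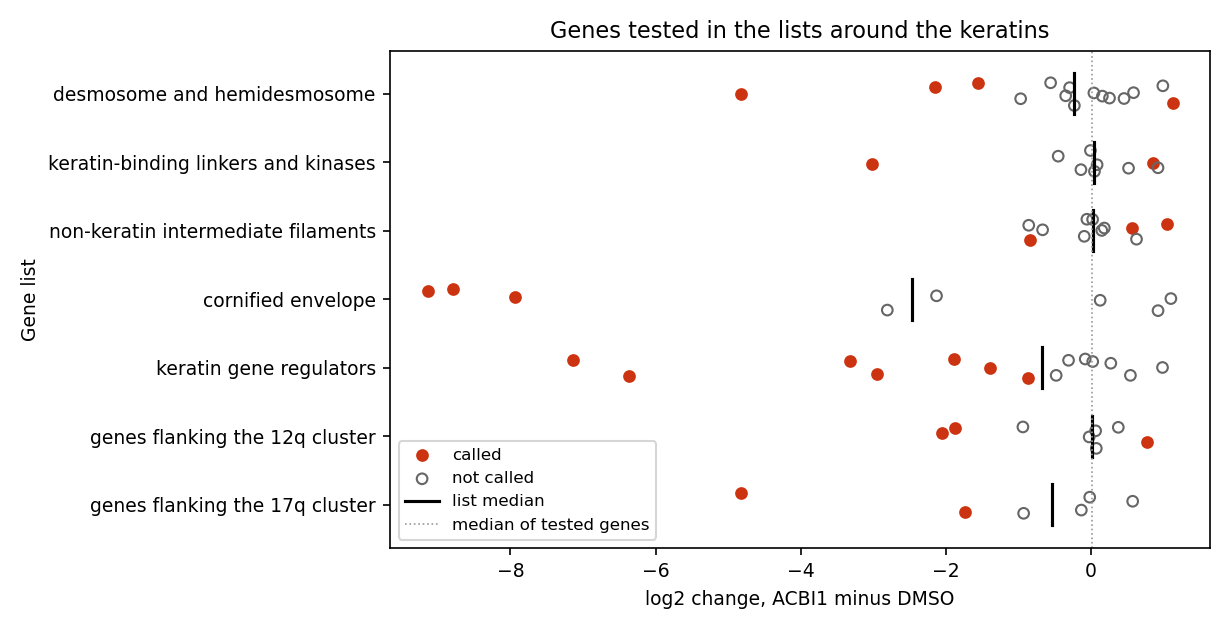
Log2 change with ACBI1 (horizontal axis) of the tested genes in 7 lists around the keratins, with 1 point a gene (filled red where called, open otherwise, moved apart vertically for sight only), a black bar at each list's median and a dotted line at the median of all tested genes. The bars of the 2 lowest lists, cornified envelope and keratin regulators, stand at -2.47 and -0.68, and the 3 leftmost cornified points are genes with 0 ACBI1 counts, whose fitted values depend on the prior count.

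The genes nearest in pattern to the keratins were sought among 11152 other genes whose mean level reached 5 CPM, by Euclidean distance of centred log2 CPM over the 4 libraries. Nearest to the mean of the 12q run were SERPINE2 (distance 0.153), TMEM163 (0.165) and NUCB2 (0.232). SERPINE2, a serine protease inhibitor gene, was at 181 and 201 CPM with DMSO and at 43.2 and 37.6 CPM with ACBI1. Nearest to the mean of KRT17 and KRT19 were NAV2 (0.195), CACNG6 (0.227) and SERINC2 (0.233). NAV2 was at 102 and 105 CPM with DMSO and at 21.2 and 13.9 CPM with ACBI1.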

How the data were processed

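Per the submitters' processing notes, the build is hg38 and the tools listed are TopHat2 2.1.1 and HTSeq 0.11.0. The annotation and the strand setting are not given in the sources used here. The deposited values are raw counts of reads per gene symbol, not normalized, with 5 closing lines for reads given to no gene. Neither library sizes nor tests used those lines. Gene counts held 84.6% to 86.1% of the reads listed.

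Genes were filtered with filterByExpr (minimum count 10, minimum total 15), scaled by TMM, and fitted in R 4.3.3 using edgeR 4.0.16 (quasi-likelihood, two-sided, treatment alone, adjusted p under 0.05). The SE is the log2 change divided by the square root of F. The script was tested on simulated counts. Exon overlap, lengths, coordinates and shared 50-base words came from GENCODE release 29, and principal transcripts were chosen by APPRIS rank.

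The members and lists were chosen with earlier results of these data known. Named genes are the members, every other testable keratin, every testable flanking gene, and in each other list at most 3 called genes in each direction with a mean of at least 1 CPM. Genes outside this rule that are named were chosen after their values were seen. Alternatives were other scalings, filters, the replicate number as a block, DESeq2 1.42.0, limma-voom (limma 3.58.1), a threshold of 0.01 and leaving out each library. Floors of 3 counts cover counting error in the ACBI1 group only.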

Additional observations from a re-analysis of the deposited data

How the results depend on the processing

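Every log2 change of the 8 tested keratins stayed negative under each alternative that could test it. With 1 library left out, which assumes that a lone library varies like the other group, the changes ranged from -4.71 to -3.53 for KRT80, -3.48 to -1.93 for KRT7, -2.82 to -1.86 for KRT86, -2.16 to -1.94 for KRT81, -1.56 to -1.26 for KRT8, -1.34 to -0.96 for KRT18, -3.62 to -2.81 for KRT17 and -3.05 to -2.14 for KRT19. A filter at a mean of 5 CPM left KRT86, KRT81, KRT17 and KRT19 untested, so neither cluster median could be given there. The number of genes called, 3331, became 5518 without a filter, 7909 with the replicate block, 783 at a threshold of 0.01 and 1379 to 4292 with 1 library left out. In the lists, 24 calls became 41 with the replicate block, 6 at 0.01 and 13 to 29 with 1 library left out. Replicate numbers are not tied to a batch or day by any label, and deviations of same-numbered libraries from their group means correlated across genes at r = 0.442. The ratio of type II to type I transcripts, a mean of 4.69 with DMSO, was 4.98 with the 9 genes alone, 5.56 without a length correction and 3.84 with union exonic length, an alternative chosen after seeing the data. With ACBI1, a mean of 2.11, it was 2.43, 2.43 and 1.51, with 0.854 in ACBI1 replicate 2 under union exonic length, where type I exceeded type II. The KRT8 to KRT18 ratio, 0.863 with DMSO and 0.731 with ACBI1, was 1.17 and 0.995 without a length correction and 0.549 and 0.465 with union exonic length. The cause was not tested for the calls, and the ratios differ by construction in the length used or, with the 9 genes alone, in the genes summed. KRT15 had 1 to 12 counts per library.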
